A study of Danio rerio with 10 samples.

Results

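Immediate early transcription factor genes are the genes that cells switch on within minutes of a stimulus without first making new protein. The list held 10 zebrafish names: fosab, fosb, fosl2, junba, junbb, egr1, atf3, ier2a, ier2b and klf2a. They were looked up by gene name in any letter case, and where only the name without its final a or b was listed, every gene ID that carried it was taken. fosab was listed as FOS, a name that RefSeq records as a synonym of fosab alone. junba and junbb were both listed as JUNB, a symbol of 2 IDs, of which 1 (ENSDARG00000074378) had counts, and which of the pair it is was not given, so it is called JUNB here. ier2a was not analysed here. The list therefore came to 8 gene IDs of 33737, and all 8 passed the filter on low counts that left 19420 genes for testing.

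Fos and Jun proteins pair through a leucine zipper to form the transcription factor AP-1, which binds short sites near the genes it controls. Serum response factor, its ternary complex partners of the Elk family, and CREB sit on the promoters of many of these genes, and MAP kinases switch those factors on when a growth factor, hormone or stress reaches the cell. The response normally fades soon, because the messengers are short-lived and because phosphatases and Sprouty proteins, which are themselves induced, shut the kinases down. In tissue pieces the same genes are also well known to respond to cutting and handling.

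The study cultured testis tissue of adult wild-type zebrafish for 3 days. All tissue received 11KT (11-ketotestosterone), the main androgen of male fish, with nothing else in 5 control libraries and with Amh (anti-Müllerian hormone, a TGF-beta family ligand of Sertoli cells) in 5 Amh libraries. Both groups carry the replicate numbers 1 to 5. Taken relative to their group means, Amh and control libraries of the same number resembled each other more than those of different numbers did. What a number stands for (a fish, an incubation or an extraction) and the dose of Amh are not stated in the labels, and no library stands for tissue before culture or without 11KT, so neither the effect of culture nor that of 11KT can be read from these values.

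Library totals were 8455226 to 15448069 counts, and totals with Amh exceeded those of the same-numbered control by factors of 1.20 to 1.30. Levels are given as CPM, counts scaled to the library size after TMM normalization. They are compared between libraries for 1 gene and not between genes, because no transcript length was at hand. Summed markers of the labelled tissue were present throughout: 10 germ cell genes at 4430 to 5567 CPM, 12 Sertoli cell genes at 1367 to 2712 CPM and 9 tested Leydig cell genes at 59.6 to 432 CPM. In bulk tissue, fewer cells of a type and less RNA per cell cannot be told apart.

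After 3 days in culture every one of the 8 genes was detected in all 10 libraries. 7 of them had counts of 167 or more in each library, and ier2b had 12 to 76. No member passed the test of Amh against control. egr1, atf3, JUNB, fosab and klf2a differed between replicate numbers by 1.5 to 2.6 times, in a test that 52.6% of all tested genes passed. The median of that fold was 1.68 over tested genes whose mean log2 CPM reached 1. JUNB and klf2a lay below this median and fosab close to it.

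**Figure D1:**
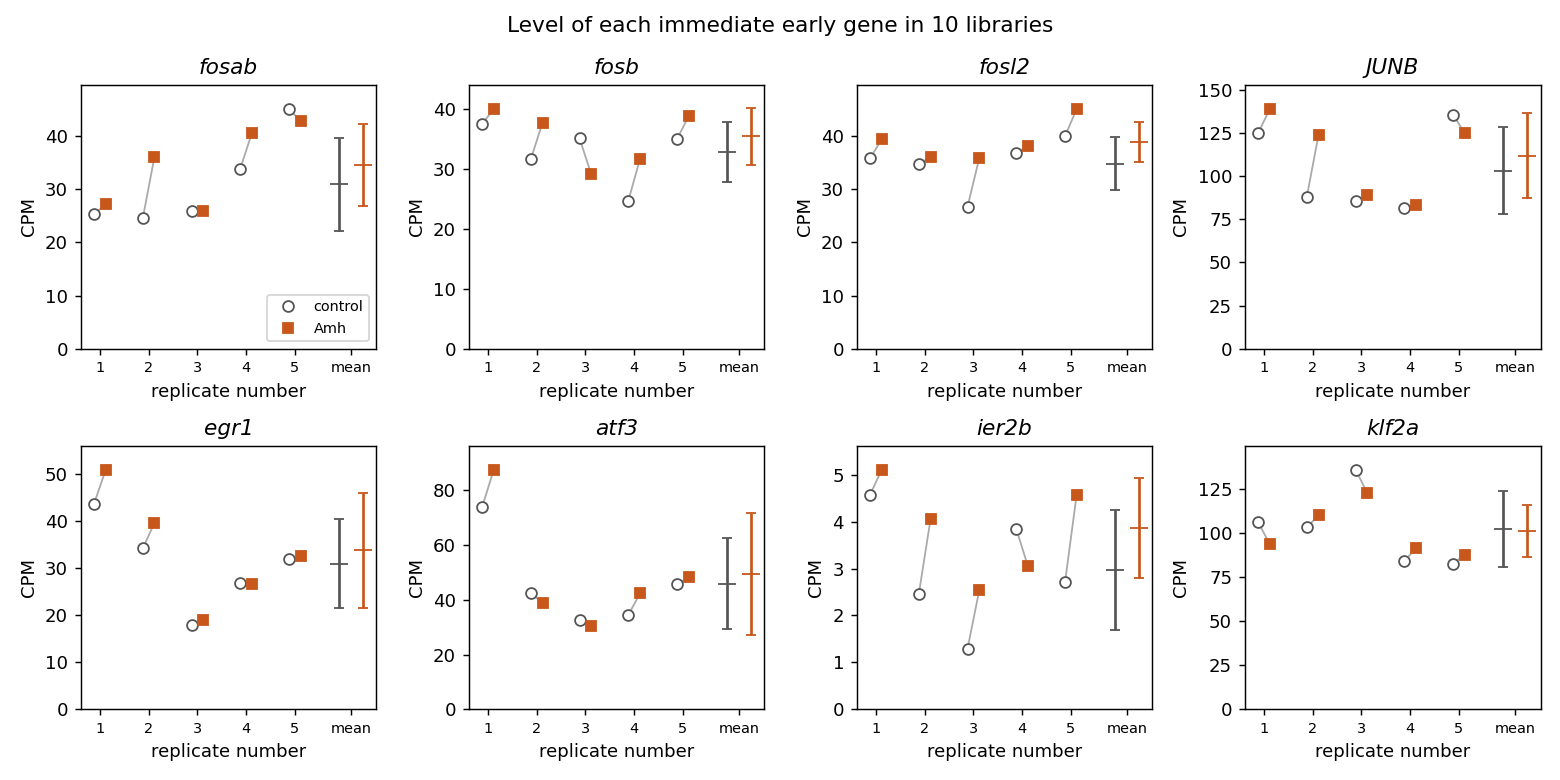
Level in CPM (vertical axis, from 0) of each gene in the 10 libraries, by replicate number (horizontal axis). Open circles are control and filled squares Amh libraries, a grey line joins the libraries of 1 number, and the bars at the right are the mean and SD of 5 libraries; the groups overlap for all 8 genes.

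fosab (ENSDARG00000031683), the fish counterpart of the proto-oncogene c-Fos and the classic AP-1 subunit, stood at 25.4, 24.6, 26.0, 33.9 and 45.1 CPM in control libraries 1 to 5. In Amh libraries 1 to 5 it stood at 27.2, 36.1, 26.0, 40.6 and 42.8 CPM. Numbers 4 and 5 were high in both groups, number 2 was high in the Amh library alone, and the groups overlapped. Group means were 31.0 ± 8.75 and 34.5 ± 7.69 CPM (control and Amh, SD, n = 5 each). The Amh to control ratio was above 1 in 3 of 5 numbers and ran from 0.949 (number 5) to 1.47 (number 2). In number 2 its 95% counting interval was 1.24 to 1.75, which covers the counting error of those 2 libraries only.

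fosb (ENSDARG00000055751), a second Fos subunit, stood at 37.5, 31.6, 35.1, 24.6 and 35.0 CPM in control libraries 1 to 5 and at 40.0, 37.7, 29.1, 31.6 and 38.8 CPM in Amh libraries 1 to 5. The control library of number 4 was the lowest of the 10. Ratios were above 1 in 4 of 5 numbers, with 1.28 in number 4 (counting interval 1.09 to 1.51) and 0.829 in number 3 (0.709 to 0.968). Libraries of 1 gene thus differed beyond counting error in both directions.

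fosl2 (ENSDARG00000040623) encodes Fra-2, a Fos-related subunit that in mammals is induced later and lasts longer than c-Fos. It stood at 35.8, 34.8, 26.7, 36.9 and 40.0 CPM in control libraries 1 to 5 and at 39.5, 36.1, 35.8, 38.1 and 45.1 CPM in Amh libraries 1 to 5. Amh was the higher library in 5 of 5 numbers, by ratios of 1.03 to 1.34, a pattern that 4.65% of all tested genes shared. Group means were 34.8 ± 4.93 and 38.9 ± 3.78 CPM (SD, n = 5 each). They differed by less than the SD of the control libraries and by more than that of the Amh libraries, and the groups overlapped.

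JUNB (ENSDARG00000074378), a Jun subunit that pairs with Fos proteins, stood at 125, 88.1, 85.9, 81.3 and 136 CPM in control libraries 1 to 5. In Amh libraries 1 to 5 it stood at 139, 124, 88.8, 83.2 and 125 CPM. Numbers 1 and 5 were high and numbers 3 and 4 low in both groups, and number 2 was low in control and high with Amh. The ratio was 1.41 in number 2 (counting interval 1.29 to 1.54) and 0.922 in number 5 (0.864 to 0.983). fosab and JUNB both had their highest ratio in number 2 and their lowest in number 5.

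**Figure D2:**
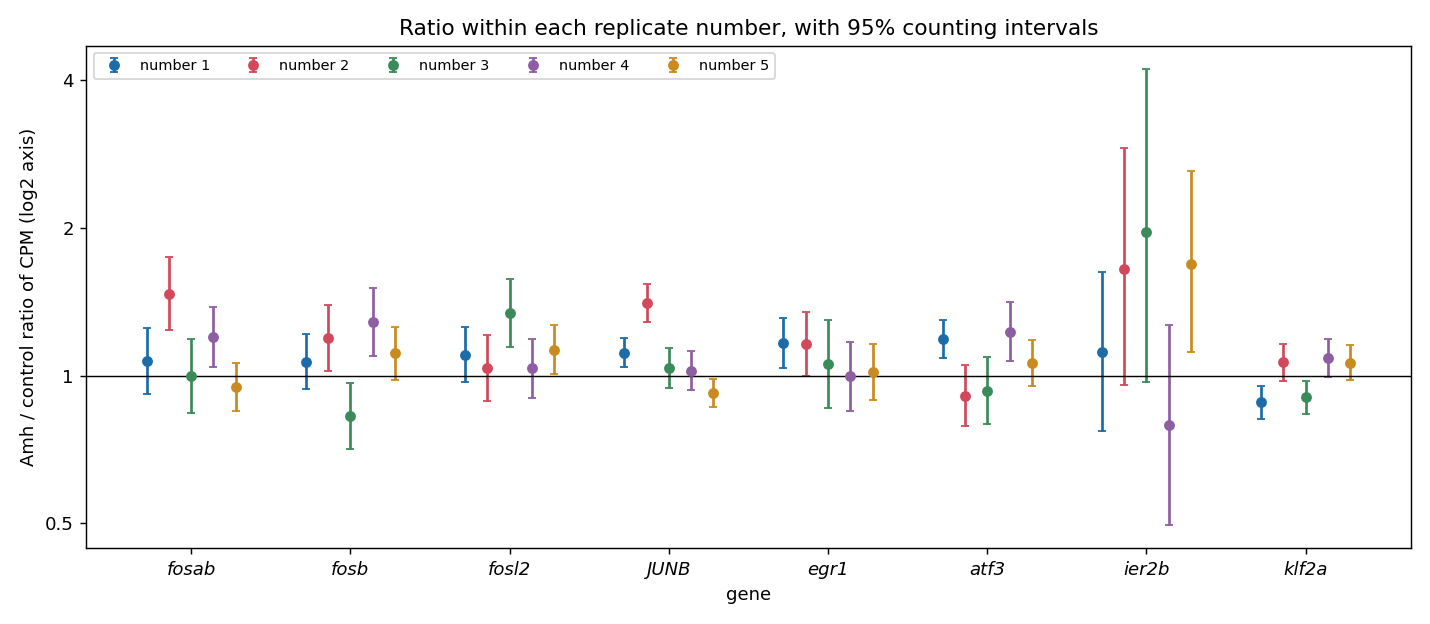
Ratio of the Amh to the control level in CPM within each replicate number (vertical log2 axis, 1 = no difference) for the 8 genes (horizontal axis). Points are ratios and bars their 95% intervals from counting error alone, and the widest bars are those of ier2b. Of 40 ratios 30 lie above 1, beside 47.9% to 50.1% of all tested genes by number. The 8 ratios of a number come from the same pair of libraries, so they are not independent.

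egr1 (ENSDARG00000037421), a zinc finger factor induced through serum response factor, stood at 43.7, 34.2, 17.99, 26.8 and 32.0 CPM in control libraries 1 to 5. In Amh libraries 1 to 5 it stood at 50.9, 39.6, 19.0, 26.7 and 32.5 CPM. Number 1 was highest and number 3 lowest in both groups, and all 5 numbers kept the same order in control and in Amh libraries. Group means were 30.9 ± 9.47 and 33.8 ± 12.2 CPM (SD, n = 5 each). The ratios, 0.997 to 1.17, had the narrowest range among the 8 genes.

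atf3 (ENSDARG00000007823), a bZIP factor of the ATF/CREB family that is induced by stress and by ATF4, stood at 73.7, 42.5, 32.8, 34.4 and 45.5 CPM in control libraries 1 to 5. In Amh libraries 1 to 5 it stood at 87.4, 38.7, 30.5, 42.3 and 48.3 CPM. Both libraries of number 1 stood above the other 8, of which the highest had 48.3 CPM. Group means were 45.8 ± 16.5 and 49.4 ± 22.2 CPM (SD, n = 5 each). Ratios lay on both sides of 1, from 0.911 in number 2 to 1.23 in number 4 (counting interval 1.07 to 1.41).

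ier2b (ENSDARG00000086881), a fish counterpart of the immediate early response gene IER2, stood at 4.57, 2.46, 1.29, 3.84 and 2.70 CPM in control libraries 1 to 5 and at 5.10, 4.05, 2.53, 3.05 and 4.57 CPM in Amh libraries 1 to 5. It was the gene with the fewest counts, and its ratios, 0.793 to 1.96, spread most. In number 3 the ratio of 1.96 rested on 12 and 29 counts and had a counting interval of 0.970 to 4.22. Only in number 5 was that interval above 1 (1.12 to 2.62).

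klf2a (ENSDARG00000042667), a Krüppel-like zinc finger factor known in zebrafish for its response to blood flow in endothelium, stood at 106, 103, 136, 84.2 and 82.7 CPM in control libraries 1 to 5. In Amh libraries 1 to 5 it stood at 93.8, 110.1, 123, 91.5 and 87.9 CPM. Number 3 was highest in both groups, where egr1 and atf3 were lowest. Group means were 102.5 ± 21.6 and 101.2 ± 14.8 CPM (SD, n = 5 each). The ratios in numbers 1 and 3, 0.882 and 0.904, had counting intervals below 1, and those in numbers 2, 4 and 5 were 1.06 to 1.09.

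The comparison of Amh with control asks whether Amh changed these genes beside 11KT. Of the 8 genes 0 passed (edgeR quasi-likelihood test, Benjamini-Hochberg adjusted p = 0.9999 for each), as did 0 of all 19420 genes, or 0%. 0 members had an unadjusted p under 0.05 (0.675% of all genes did), and DESeq2 and limma-voom also called 0 members. With the replicate number as a block, again 0 members passed and 0 had an unadjusted p under 0.05, where 0.0206% and 8.72% of all genes did (adjusted p = 0.616 to 0.988 over the members). DESeq2 and limma-voom with the block called 0 members too, where they called 0.129% and 0.0412% of all genes. DESeq2 with the block gave ier2b no adjusted p, so it could not be called there (unadjusted p = 0.157, DESeq2). Control and Amh libraries overlapped in CPM for all 8 members, and 0.139% of all genes had groups that did not overlap.

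The size of the difference was bounded more tightly within numbers. For fosl2 the paired fold was 1.12, with a 95% interval of 0.990 to 1.27, and an unadjusted p = 0.0686, the smallest among the 8 (paired edgeR quasi-likelihood test). For fosab it was 1.12 (0.968 to 1.29), for JUNB 1.09 (0.960 to 1.23) and for fosb 1.08 (0.942 to 1.25). For egr1 it was 1.08 (0.952 to 1.22), for atf3 1.06 (0.935 to 1.20) and for klf2a 0.995 (0.892 to 1.11). The interval of ier2b was the widest, 1.33 (0.938 to 1.88). A change of 2-fold in either direction thus lay outside the paired intervals of all 8 genes. For the genes other than ier2b the intervals went no lower than 0.892 and no higher than 1.29. All 8 intervals included 1, so differences within them could not be told from none. These intervals are not adjusted for the number of genes. Without number 2 the paired log2 fold change of fosab fell from 0.16 to 0.07 and that of JUNB from 0.12 to 0.03. That of fosb ran from 0.06 without number 4 to 0.21 without number 3, that of atf3 from 0.03 without number 4 to 0.14 without number 2, and that of fosl2 was 0.11 without number 3.

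The members' median log2 fold change was 0.12 unpaired and paired, beside a median of -0.01 over all tested genes in both. 7 of 8 were above 0, against 47.1% of all genes unpaired and 48.8% paired. Without Amh replicate 1, egr1 stood at -0.07 and atf3 at -0.20 unpaired, and without control replicate 3 egr1 stood at -0.02, so the sign of their unpaired difference rested on single libraries. By number, 7 of 8 members had a ratio above 1 in numbers 1 and 2, 6 of 8 in numbers 4 and 5 and 4 of 8 in number 3. Of all tested genes 47.9% (number 3) to 50.1% (number 2) had a ratio above 1. The direction of a wider early response and heat shock list was known from these data when the members were chosen, so the lean of the members above 0 is not independent evidence.

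The spread over the 10 libraries was split into a share that follows the replicate number, with 4 terms, and a share that follows the group, with 1 term. Over the 10 libraries 97.6% of the sum of squares of log2 CPM of egr1 followed the number and 1.34% the group. For atf3 these shares were 95.8% and 0.699%, and for klf2a 91.8% and 0.0155%. JUNB and fosab had 84.9% and 81.8% by number, and ier2b, fosl2 and fosb 66.2%, 65.2% and 64.7%. The median over all tested genes was 77.2% by number and 2.86% by group. Per term, the number took 24.4% in egr1 and 23.9% in atf3, but 16.3% in fosl2, below the 20.9% of the group, and 16.5% in ier2b, close to the 16.1% of the group. The share by number was larger than that of egr1 in 2.94% of tested genes, and fosl2 had the largest share by group among the members.

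**Figure D3:**
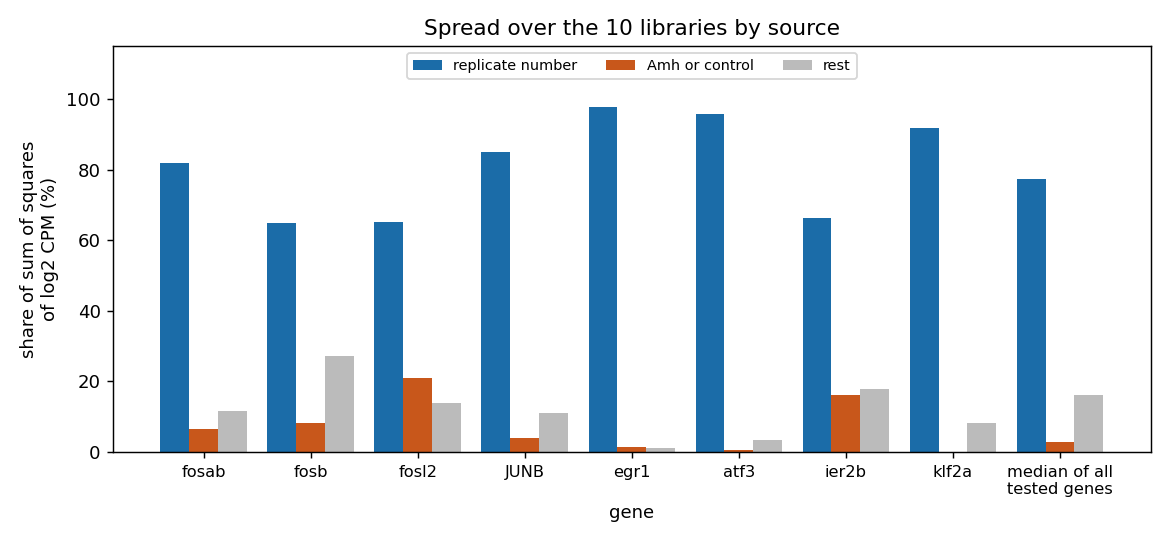
Share in percent of the sum of squares of log2 CPM over 10 libraries (vertical axis) that follows the replicate number, the group and neither, for the 8 genes and as medians over all tested genes (horizontal axis). The number takes 64.7% to 97.6% and the group at most 20.9%.

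The test of a difference between the 5 numbers, with group as a further term, called 5 of 8 members, beside 52.6% of all tested genes, so the count is near the background. The calls were atf3 (adjusted p = 5.9e-06), egr1 (1.1e-05), JUNB (0.00092), fosab (0.0018) and klf2a (0.00285; edgeR quasi-likelihood test, Benjamini-Hochberg adjusted, 2 libraries a number). ier2b (adjusted p = 0.0768), fosl2 (0.0900) and fosb (0.0955) did not pass. Without number 2 all 8 did. The count over all genes also moves when a number is left out, so this is not read as a result about the members. ier2b also passed with no filter on low counts (adjusted p = 0.0367) and without number 4 (0.0470). Without number 3 klf2a did not pass (adjusted p = 0.111, edgeR quasi-likelihood test).

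The highest and lowest numbers differed most in egr1, from a mean of 18.5 CPM in number 3 to 47.3 CPM in number 1, or 2.56 times. atf3 went from 31.6 to 80.6 CPM (2.55 times) between the same numbers, and ier2b from 1.91 to 4.84 CPM (2.53 times). JUNB went from 82.2 CPM in number 4 to 132 CPM in number 1, and fosab from 26.0 CPM in number 3 to 44.0 CPM in number 5. klf2a ran from 85.3 CPM in number 5 to 129.5 CPM in number 3. The fold was 1.60 for JUNB, 1.69 for fosab, 1.52 for klf2a, 1.38 for fosb and 1.36 for fosl2. Its median over tested genes whose mean log2 CPM reached 1 was 1.68. Among the members only egr1, atf3 and ier2b thus stood well above a typical gene, and fosab was close to the median. The fold of ier2b rested on 12 to 76 counts a library. ier2b did not pass the test between numbers (adjusted p = 0.0768, edgeR quasi-likelihood test). Its share by number, 66.2%, was below the median of 77.2% over all tested genes. 5 of 8 members were highest in number 1 and 5 of 8 lowest in number 3, against 18.3% and 24.9% of all tested genes. The first count includes fosb and ier2b and the second fosl2 and ier2b, which did not pass the test between numbers.

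**Figure D4:**
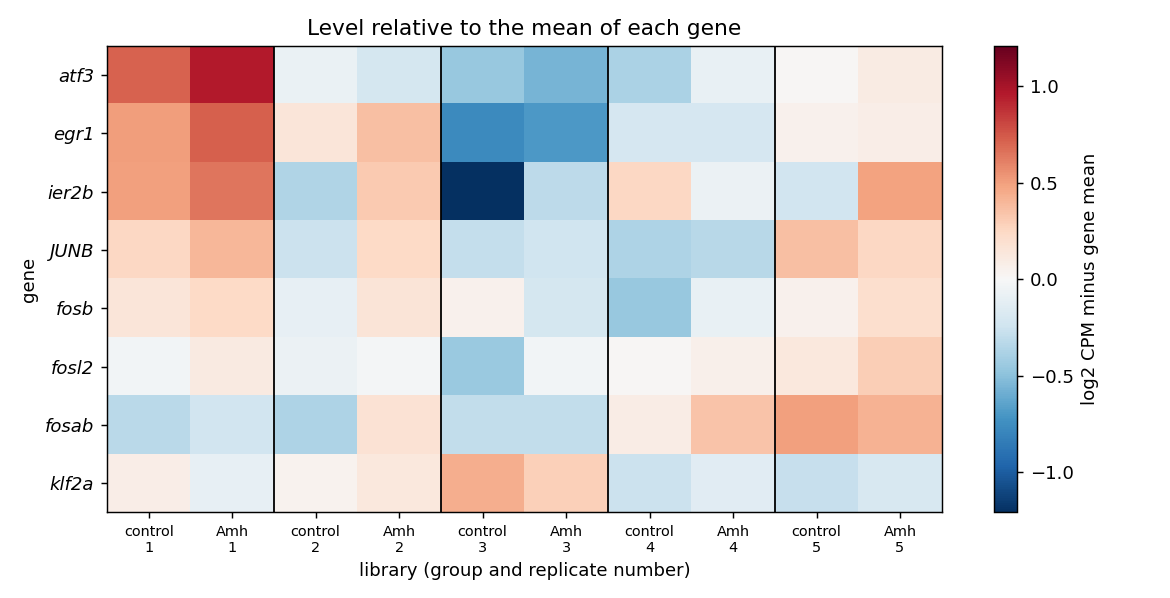
Level in log2 CPM minus the mean of each gene (colour, red higher and blue lower) for the 8 genes (rows) in 10 libraries (columns, paired by replicate number between black lines). atf3, egr1, ier2b, JUNB and fosb lie above their means in both libraries of number 1. atf3, egr1, ier2b, JUNB, fosab and fosl2 lie below theirs in both of number 3, where klf2a lies above its mean.

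egr1 and atf3 had the most alike profiles over the 10 libraries by rank, measured as the root mean square difference of their centred log2 CPM (0.26). Among 17118 other genes whose mean log2 CPM reached 1, egr1 was the gene ranked 80 by nearness to atf3, and atf3 ranked 121 by nearness to egr1. egr1 ranked 108 by nearness to ier2b, but ier2b ranked 724 by nearness to egr1, behind JUNB at 470. JUNB and fosb differed by 0.19, the smallest value between 2 members, and klf2a differed from ier2b by 0.69, the largest. fosab, by contrast, stood 0.55 from egr1 and 0.60 from atf3.

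The 5 named genes nearest to the mean profile of the 8 members were PLIN2, a lipid droplet coat protein (0.07), NATD1 (0.07), BIRC2, an inhibitor of apoptosis (0.08), SLC12A9 (0.08) and the clathrin adaptor PICALM (ENSDARG00000012866, 0.09). For single members the nearest was ADCY6, an adenylate cyclase, for fosab (0.14), the kinase gene DAPK1 for fosb (0.08) and WASF2, an actin regulator, for fosl2 (0.05). It was keap1a, the repressor of the oxidative stress factor Nrf2, for JUNB (0.11), si:dkey-79d12.5 for egr1 (0.17) and NOD2, a sensor of bacterial wall fragments, for atf3 (0.10). htr2cl1 was nearest to ier2b (0.21) and CEP15 to klf2a (0.05). These values are a description over 10 libraries that share 5 numbers.

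Of 11 other AP-1 genes with counts, 9 were tested. 6 of 9 (66.7%) differed between numbers, beside 52.6% of all tested genes, and 0 differed with Amh, unpaired or paired. FOSL1, the Fra-1 subunit, went from 4.23 CPM in number 3 to 16.0 CPM in number 1 (adjusted p = 4.3e-05), and the other Fra-1 paralogue fosl1b from 11.7 CPM in number 5 to 36.8 CPM in number 4 (adjusted p = 3.9e-06; edgeR quasi-likelihood test between numbers). The paralogues thus had their high numbers in different places. maff, a small Maf partner, went from 52.7 CPM in number 3 to 149 CPM in number 2 (4.7e-07). The median log2 fold change with Amh was 0.12 in both fits, with JUN at 0.19 ± 0.157 and JDP2 (ENSDARG00000020133) at 0.19 ± 0.178 unpaired (SE).

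The members with a Batf gene beside them in the RefSeq table of assembly GRCz12tu were fosab, next to batf, and atf3, next to batf3. BATF had counts but did not pass the filter on low counts, so only BATF3 is given here. BATF3, a bZIP partner of Jun, stood at 11.2 CPM in number 1, its highest, and did not pass the test between numbers (adjusted p = 0.219, edgeR quasi-likelihood test). atf3 was also highest in number 1, as were 18.3% of all tested genes.

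Of the 4 other EGR genes tested, 3 differed between numbers, beside 52.6% of all tested genes, with their highest levels in different numbers. EGR3 went from 2.24 CPM in number 3 to 9.27 CPM in number 1 (adjusted p = 0.00013, edgeR quasi-likelihood test between numbers), in the same numbers as egr1. egr2a was also highest in number 1 (17.7 CPM) but lowest in number 4 (5.66 CPM, 1.4e-05), and egr4 was highest in number 2 (21.4 CPM, 0.000432). EGR2 did not pass (0.110). klf2b, the paralogue of klf2a, was highest in number 3 (11.8 CPM) like klf2a, and lowest in number 4 (4.78 CPM, adjusted p = 0.000945). FOSL1, fosl1b, maff, BATF3, the EGR genes and klf2b were named after their values were seen.

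Of 25 tested early response factors outside the members, 16 (64%) differed between numbers, beside 52.6% of all tested genes, and 0 with Amh. Their median log2 fold change was 0.12 unpaired and 0.16 paired, with 18 of 25 above 0 in both. csrnp1a and CSRNP1, nuclear proteins induced early by growth factors, had the smallest unpaired p, with log2 fold changes of 0.45 ± 0.30 and 0.53 ± 0.436 (SE). Upstream factors and kinases (24 tested) had a median of 0.02 unpaired and 0.03 paired, with 12 of 24 above 0 unpaired, 0 called with Amh and 8 (33.3%) differing between numbers, below the 52.6% of all tested genes. There ELK3, a ternary complex factor, stood at 0.37 ± 0.27 and the CREB relative atf1 at 0.24 ± 0.139 (unpaired log2 fold change, SE). ELK4, another ternary complex factor, chosen after its values were seen, went the other way, with a paired log2 fold change of -0.25 ± 0.0845 (SE), the lower library with Amh in 5 of 5 numbers and the smallest paired p of that list (paired edgeR, unadjusted p = 0.00871, adjusted p = 0.422).

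**Figure D5:**
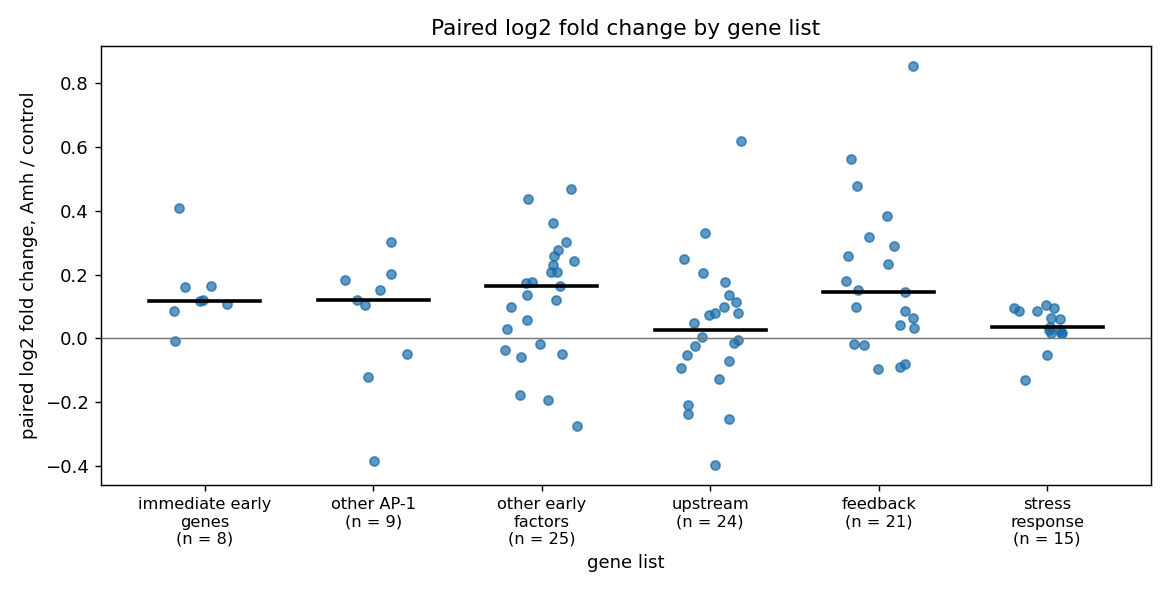
Paired log2 fold change of Amh against control (vertical axis) for each tested gene of 6 lists (horizontal axis). Each point is a gene and the black line the list's median, which is 0.12 for the immediate early genes, 0.15 for the feedback genes and 0.04 for the stress response genes.

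The feedback list holds genes that early signals induce in several pathways, and not all of them are inhibitors. It comprises MAP kinase phosphatases and Sprouty genes, SOCS and CISH genes of cytokine signalling, NF-kappaB inhibitors, mRNA decay factors, and growth arrest and kinase genes. Of its 21 tested genes 0 passed with Amh in either fit, and the paired log2 fold change of single genes reached 0.85. Their median log2 fold change was 0.14 unpaired and 0.15 paired, and 16 of 21 were above 0. In the paired fit 8 of 21 had an unadjusted p under 0.05 and were higher with Amh, against 3.84% of all genes, and 0 of 21 were lower. This list, like the others here, was chosen with earlier results of these data known, so the excess is not independent evidence. Of the 8 genes, 5 were DUSP or SPRY genes and 3 were both SOCS3 IDs and the kinase gene sgk1. SPRY4, a Sprouty inhibitor of receptor kinase signalling, stood at 3.78 and 7.09 CPM in control and Amh libraries and was the higher one with Amh in 5 of 5 numbers, with a paired log2 fold change of 0.85 ± 0.221 (SE; paired edgeR, unadjusted p = 0.00143, adjusted p = 0.307). DUSP6, the phosphatase of ERK, stood at 29.0 and 35.4 CPM and also higher in 5 of 5 (0.29 ± 0.0864, unadjusted p = 0.00401, adjusted p = 0.371). DUSP5 and SPRY2, named after their values were seen, were higher in 5 of 5 as well (0.38 ± 0.115 and 0.48 ± 0.156, adjusted p = 0.371 and 0.415). DUSP4, also named after its values were seen, was higher in 4 of 5 (0.56 ± 0.156, paired edgeR, adjusted p = 0.335). The remaining 3 of the 8, named in the same way, had values of this kind too. sgk1 was higher in 5 of 5 (0.32 ± 0.088, paired edgeR, adjusted p = 0.335). Each SOCS3 ID was higher in 4 of 5 (0.18 ± 0.0832 and 0.26 ± 0.104, paired edgeR, adjusted p = 0.568 and 0.515).

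The stress response genes around ATF4, the factor that induces atf3, were the most often highest in number 1 among the pathway lists. Of 15 tested, 14 differed between numbers and 12 were highest in number 1, beside 52.6% and 18.3% of all tested genes, and 0 differed with Amh (median log2 fold change 0.02 unpaired and 0.04 paired). Their summed level was 2649 and 2843 CPM in the control and Amh libraries of number 1 and 1590 to 2176 CPM in the other 8. CHAC1, a glutathione-degrading enzyme induced by ATF4, stood at 830.4 CPM in number 1 and 415 CPM in number 4, its lowest, and TRIB3, a pseudokinase of the same pathway, went from 55.5 CPM in number 3 to 125 CPM in number 1 (adjusted p = 3.5e-05 and 6.2e-06, edgeR quasi-likelihood test between numbers). CHAC1 and TRIB3 were named after their values were seen. ppp1r15b and XBP1, the genes of this list with the smallest unpaired p, stood at -0.13 ± 0.185 and 0.09 ± 0.164 (log2 fold change with Amh, SE).

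Markers of cell types had the following levels by number and group, and their part in the values above was not tested. These lists too were chosen with earlier results of these data known. Summed Leydig cell genes were 59.6 and 65.9 CPM in number 3 and 184 to 432 CPM in the other 8 libraries. 9 of 9 were lowest in number 3, as were egr1 and atf3, against 24.9% of all tested genes. 0 of 9 were highest in number 1, where egr1 and atf3 were highest, against 18.3% of all tested genes. With Amh 2 of 9 Leydig cell genes were above 0 (median log2 fold change -0.37 unpaired). In the paired fit 5 of 9 were lower with an unadjusted p under 0.05 (edgeR). So were 6 of 9 macrophage and leukocyte genes, 3 of 6 red cell genes and 1 of 10 germ cell genes. At that cut 6 of 12 Sertoli cell genes were higher and 1 lower, and 1 endothelial gene was higher and 1 lower. Of all tested genes 8.72% passed it in either direction, and 3.84% were higher with Amh. Of 12 Sertoli cell genes 8 were highest in number 1 (66.7%), as were 5 of 8 members (62.5%), against 18.3% of all tested genes. Sertoli cell genes were 1711 to 2712 CPM in Amh and 1367 to 2122 CPM in control libraries (11 of 12 above 0, median log2 fold change 0.30 unpaired), while germ cell genes had a median of -0.08 (3 of 10 above 0) and differed between numbers in 2 of 10. No gene of a cell type list passed with Amh unpaired. Macrophage and leukocyte genes were 109 to 197 CPM with Amh and 152 to 281 CPM in control (0 of 9 tested above 0, median -0.47, with c1qc at 0 in all 10 libraries), and 1 of 9, cd74a, fell in the paired fit. Single genes weighed heavily in these sums. Means with Amh and in control were 62.0 and 95.9 CPM for cd74a and 45.1 and 53.7 CPM for CORO1A. In the Sertoli cell sum they were 1259 and 1011 CPM for gsdf. CORO1A and gsdf were named after their values were seen. Summed red cell genes were 56.5 to 124 CPM with Amh and 74.0 to 161 CPM in control (1 of 6 above 0, median -0.30). Endothelial genes, the cell type in which klf2a is best known, were 61.5 to 86.2 and 55.1 to 92.6 CPM (4 of 10 above 0, median -0.04). In number 3, where klf2a was highest, they were at 55.1 and 61.5 CPM, the low end of each group. Number 2 was close, at 55.4 and 61.9 CPM in control and Amh. Of the endothelial genes 4 of 10 were lowest in number 3, against 24.9% of all tested genes, and 1 of 10 was highest there.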

How the data were processed

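RNA of 10 libraries of cultured zebrafish testis was analysed from the counts that the authors deposited, whole-number read counts per Ensembl gene without normalization, 1 table per library. Per the labels, a TruSeq kit turned 2 µg of total RNA into each library. Build Zv9 and the tools HTSeq, DESeq, TopHat2 2.0.5, FastQC 0.10.1 and SAMtools 0.1.18 appear in the submitters' processing notes. Neither the annotation release nor the strand setting is given in the sources used here, and how reads shared between paralogues were counted is unknown. Symbols came from a name table (21939 of 33737 IDs). Gene positions were used only to find the neighbours of members in the RefSeq table of assembly GRCz12tu.

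Genes passing filterByExpr (19420) were scaled by TMM and tested in edgeR 4.0.16 (quasi-likelihood, R 4.3.3), group as the only term, Benjamini-Hochberg over all genes, threshold 0.05. The same test on the 4 number terms, with group, compared the replicate numbers. A standard error is the log2 fold change over the square root of F. Alternatives were RLE and upper-quartile scaling, DESeq2 1.42.0, limma-voom (limma 3.58.1), no low-count filter, thinning to 1 depth, leaving out libraries and the replicate block. Log2 CPM used a prior count of 2. Ratio intervals are exact binomial (Clopper-Pearson, 95%) and cover counting error only. Scripts were tested on simulated data.

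Same-numbered libraries deviated together (correlation across genes 0.490 to 0.784, others -0.338 to 0.130), so the numbers were taken to pair the samples. No 2 libraries of a group were copies (chi-square per degree of freedom 17.4 or more). The labels call the samples biological replicates without naming animals, so p-values measure the spread between these libraries. The members and lists were chosen with earlier results of these data known. Named genes were all members, the 2 genes of each list with the smallest unpaired p at an average log2 CPM of at least 1 (cell type lists are given as lists), and the nearest profiles; any further gene is marked in the text as chosen after seeing its values.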

Additional observations from a re-analysis of the deposited data

How the results depend on the processing

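Under 25 alternatives to the comparison of Amh with control, 0 members passed in any, and 6 to 8 of 8 members were above 0. Over all genes the count of 0 became 4 with the replicate block, 25 with the block in DESeq2, 8 with the block in limma-voom and 3 with the block on thinned counts, and 0 to 229 when a library or a number was left out (229 without number 2, 1 without number 1 or 3, with the block). The block changed no call of a member. The sign reversed in 9 of 200 values of single members, all on leaving out 1 library or number: atf3 ranged from -0.20 to 0.35, egr1 from -0.07 to 0.28 and klf2a from -0.10 to 0.10 on the log2 scale (klf2a 0.0376 and 0.0300 with the block without numbers 1 and 3, egr1 -0.071 without Amh replicate 1). Between replicate numbers, 4 to 8 of 8 members passed when a number was left out (8 without number 2) and 6775 to 11828 genes did (6775 without number 3), the cause not tested. With no low-count filter 6 members passed. With exact symbols alone the median of the other early factors was 0.25 (7 genes), that of the feedback genes -0.0079 (3 genes), both on fewer genes, and with the replicate block 1 macrophage gene was called. Depth limits ier2b most: 12 to 76 counts a library.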
